A study of Mus musculus with 6 samples.

Results

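The genes described here are the chemokines and the chemokine receptors of the mouse, taken as the protein-coding rows of the deposited gene table whose symbols begin with Ccl, Cxcl, Ccr or Cxcr and a number, or are Cx3cl1 or Cx3cr1. They were 53 of the 30914 genes in the table, 36 of them ligands and 17 receptors. Of the 53, 22 reached the limit for testing, which was 0.5 FPKM in 3 or more of the 6 libraries, 18 ligands and 4 receptors, among 13089 genes tested. FPKM is the number of fragments of a gene relative to the length of its transcript and to the total of mapped fragments, so levels can be set side by side between genes. The other 31 genes were too low to test, with a highest value in any library of 1.75 FPKM (Cxcr6), and Cxcl3, Ccr4 and Cxcr1 were listed at 0 in every library.

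RNA was sequenced from hearts of wild-type male C57BL/6J mice, with an age given as 8 weeks. The study states that age for the mice as they were procured, so it does not include the weeks of infusion. All 6 mice received angiotensin II (Ang II), a peptide hormone that raises blood pressure and drives enlargement of the heart, at 1 μg/kg/min for 4 weeks from an osmotic pump. The Ang II group (n = 3) received nothing further by the labels, and the Ang II + Tec group (n = 3) also received tectochrysin (Tec), a plant flavone, at 5 mg/kg during the last 2 weeks. Ang II was therefore common to both groups, and no library of untreated hearts was analysed here, so the comparison shows how Ang II hearts with and without Tec differed and not how far either group was from normal. The study asked by this comparison how Tec acts on the Ang II heart, in which inflammatory signalling through STING and NFκB was of interest.

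Chemokines are small secreted proteins that guide leukocytes along a gradient by binding G protein-coupled receptors on the surface of the cell. In an injured or overloaded heart, ligands of Ccr2 draw monocytes out of the blood, and these become macrophages beside the macrophages that live in the tissue. Other members serve in the resting heart, such as Cxcl12 from stromal cells and Ccl21 from lymphatic vessels. Several chemokine genes are switched on by NFκB and by interferon.

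The windows that RefSeq places around the transcription start on GRCm38.p6 (250 bases before it to 50 after it) are shown for Ccl8 and Ccl12, the neighbouring ligands with the lowest log2 fold changes among the tested members, and for Cxcl10, which held the most motif matches of any member. Windows that contain the gene start of the deposited table were found for 35 members and searched on both strands for the NFκB consensus and for the core of the interferon-stimulated response element (GAAA, any pair of bases, GAAA), and the matches are in capitals, with the overlapping matches in Cxcl10 joined. The Ccl8 window lies at chr11:82114935-82115234 and the Ccl12 window at chr11:82101595-82101894, both on the plus strand, and the Cxcl10 window lies at chr5:92348840-92349139 on the minus strand.
Ccl8: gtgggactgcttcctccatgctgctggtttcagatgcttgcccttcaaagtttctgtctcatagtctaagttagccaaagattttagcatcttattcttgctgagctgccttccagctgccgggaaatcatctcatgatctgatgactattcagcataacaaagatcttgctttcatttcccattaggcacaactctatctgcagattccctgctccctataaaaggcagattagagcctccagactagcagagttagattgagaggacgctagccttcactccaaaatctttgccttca
Ccl12: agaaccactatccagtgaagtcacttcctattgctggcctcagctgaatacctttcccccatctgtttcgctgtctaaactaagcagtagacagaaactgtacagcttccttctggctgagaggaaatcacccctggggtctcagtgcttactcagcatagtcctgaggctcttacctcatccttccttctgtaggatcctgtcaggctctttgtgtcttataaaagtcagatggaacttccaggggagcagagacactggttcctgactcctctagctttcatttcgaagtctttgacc
Cxcl10: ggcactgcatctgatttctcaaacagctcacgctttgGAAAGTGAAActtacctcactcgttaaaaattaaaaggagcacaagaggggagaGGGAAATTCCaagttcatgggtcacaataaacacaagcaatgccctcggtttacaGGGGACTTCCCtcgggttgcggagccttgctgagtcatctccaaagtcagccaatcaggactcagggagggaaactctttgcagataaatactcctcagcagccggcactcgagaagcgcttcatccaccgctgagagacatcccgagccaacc
The Cxcl10 window held 3 matches to the NFκB consensus and 1 to the interferon element. The windows of Ccl8 and Ccl12 held 0 of either, which says only that these letters are not in these 300 bases. Among all 35 members searched, 7 (20%) held the NFκB consensus, namely Ccl9, Ccr1, Ccr3, Cxcl1, Cxcl10, Cxcl2 and Cxcl3, beside 8.46% of the 32851 windows in the whole collection. The interferon element was in 3 (8.57%), namely Ccl19, Cxcl10 and Cxcl14, beside 3.44% of all windows. Ccl1, Ccl21b, Ccr1l1 and Ccr9 were left out because their windows lie away from the deposited start, although that of Ccl1 held 2 matches to the NFκB consensus, and so was a further window of Ccl27a with 1 match. Members without a window included Ccl2, Ccl4, Ccl5, Ccl7, Ccl11, Ccl24, Ccr7, Ccr10, Cxcl5, Cxcl11, Cxcl16, Cxcl17 and Cxcr5.

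No member was called differentially expressed, which took an adjusted p-value under 0.05 and a log2 fold change of 1 or more in size (limma on log2(FPKM + 1), Benjamini-Hochberg over all tested genes), a call met by 0.160% of all tested genes. The smallest adjusted p-value of a member was 0.201, for Ccl8. The direction was mostly downward with Tec, as it was in the whole table. Of the 22 tested members, 19 had a negative log2 fold change (Ang II + Tec minus Ang II) and 3 a positive one (Ccl11, Ccl24 and Cxcl14), while 80.0% of all tested genes had a negative one. The median log2 fold change was -0.49 over the tested members and -0.17 over all tested genes. At an unadjusted p-value under 0.05, 8 members (36.4%) were lower with Tec, beside 16.5% of all tested genes, and 0 were higher, beside 2.09%. These 8 were Ccl8, Ccl12, Ccl21a, Ccr1, Ccr2, Ccl7, Ccl2 and Cxcl16. Because 1 was added before the logarithm was taken, fold changes of weakly expressed genes, which most members are, come out too small on this scale.

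The scale of the libraries bears on these counts. With libraries rescaled by the median of ratios, the median of all tested genes moved to 0.0020 and that of the members to -0.35, 16 of the 22 members were lower with Tec, and 6 (27.3%) had an unadjusted p-value under 0.05 in that direction, beside 8.20% of all genes. In 5 of the 22 members (22.7%) every Ang II + Tec library lay below every Ang II library, beside 18.9% of all tested genes. These were Ccl8, Ccl12, Ccl21a, Ccr1 and Ccr2. In 0 members did every Ang II + Tec library lie above, beside 2.90% of all tested genes. Ccr1 and Ccr2 reached the limit for testing only in Ang II libraries and so had to be lower with Tec once they were tested. The shares are a description for that reason, and the members also share their 6 libraries.

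Over all 53 members, the mean was lower with Tec in 38, higher in 11 and equal in 4. The summed FPKM of the members was 129.83, 146.55 and 83.79 in Ang II replicates 1, 2 and 3 and 68.23, 72.7 and 76.52 in Ang II + Tec replicates 1, 2 and 3. The lowest Ang II library thus lay close above the highest Ang II + Tec library, and most of the distance between the groups came from Ang II replicates 1 and 2.

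**Figure D1:**
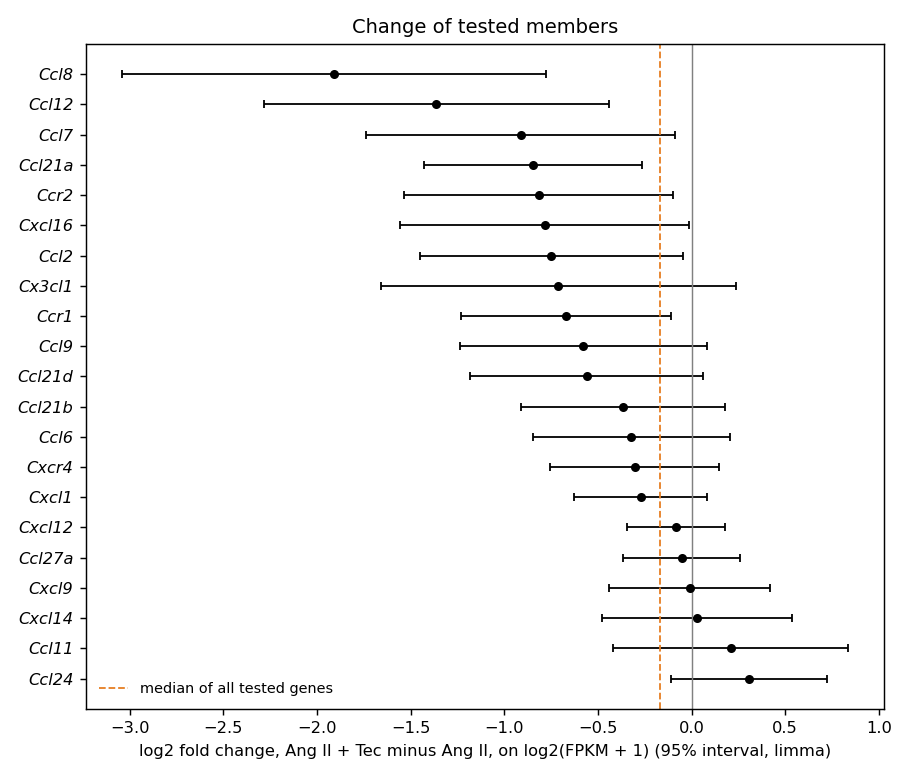
Log2 fold change of 21 of the 22 tested members (Ang II + Tec minus Ang II, on log2(FPKM + 1), n = 3 per group), with points for the estimate, bars for the 95% interval from limma and a dashed line for the median of all tested genes (-0.17). Estimates run from -1.91 for Ccl8 to 0.31 for Ccl24, and 8 intervals lie wholly below 0.

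Among the ligands that attract monocytes, all 6 had a negative log2 fold change, beside 80.0% of all tested genes. Their median was -0.83, beside -0.17 over all tested genes. At an unadjusted p-value under 0.05, 4 were lower with Tec, beside 16.5% of all tested genes. Ccl8, of the monocyte chemoattractant family and in the mouse also a ligand of Ccr8 (chr11:82115185-82116799, ENSMUSG00000009185), measured 6.33, 9.40 and 1.41 FPKM in Ang II replicates 1 to 3 and 0.43, 0.55 and 0.57 FPKM in Ang II + Tec replicates 1 to 3. All Ang II + Tec libraries lay within a narrow low range, while the Ang II libraries were spread widely above it. The mean FPKM was 11.1-fold lower with Tec (5.71 ± 4.03 SD against 0.517 ± 0.0757 SD, n = 3 each), and the log2 fold change was -1.91 (SE 0.48, adjusted p = 0.201). Because this is bulk tissue, fewer cells of a type and less RNA per cell cannot be told apart here or in any result that follows.

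Ccl12, another ligand of Ccr2 (chr11:82101845-82103400), measured 7.25, 11.84 and 3.03 FPKM with Ang II and 1.96, 1.40 and 2.53 FPKM with Ang II + Tec. The groups did not overlap, but Ang II replicate 3 stood only slightly above the highest Ang II + Tec library. Its log2 fold change was -1.36 (SE 0.39, adjusted p = 0.218). Ccl7, which binds Ccr1, Ccr2 and Ccr3, measured 3.84, 5.51 and 1.34 FPKM with Ang II and 1.37, 1.48 and 0.88 FPKM with Ang II + Tec, and the groups overlapped at Ang II replicate 3. The log2 fold change of Ccl7 was -0.91 (SE 0.35, adjusted p = 0.247). Ccl2, the principal ligand of Ccr2, measured 2.78, 3.19 and 0.92 FPKM with Ang II and 1.27, 0.63 and 0.73 FPKM with Ang II + Tec, again with Ang II replicate 3 inside the other group's range. Its log2 fold change was -0.75 (SE 0.30, adjusted p = 0.256).

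Ccl6 and Ccl9, rodent ligands of Ccr1, were the most abundant of the 6 in the Ang II + Tec group. Ccl9 measured 5.22, 9.67 and 4.26 FPKM with Ang II and 2.83, 3.68 and 4.85 FPKM with Ang II + Tec (log2 fold change -0.58, SE 0.28, adjusted p = 0.302). Ccl6 measured 10.27, 15.80 and 12.17 FPKM with Ang II and 8.65, 8.09 and 13.59 FPKM with Ang II + Tec (log2 fold change -0.32, SE 0.22, adjusted p = 0.419). The groups overlapped in both genes, and for Ccl6 the 95% interval ran from -0.85 to 0.20.

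**Figure D2:**
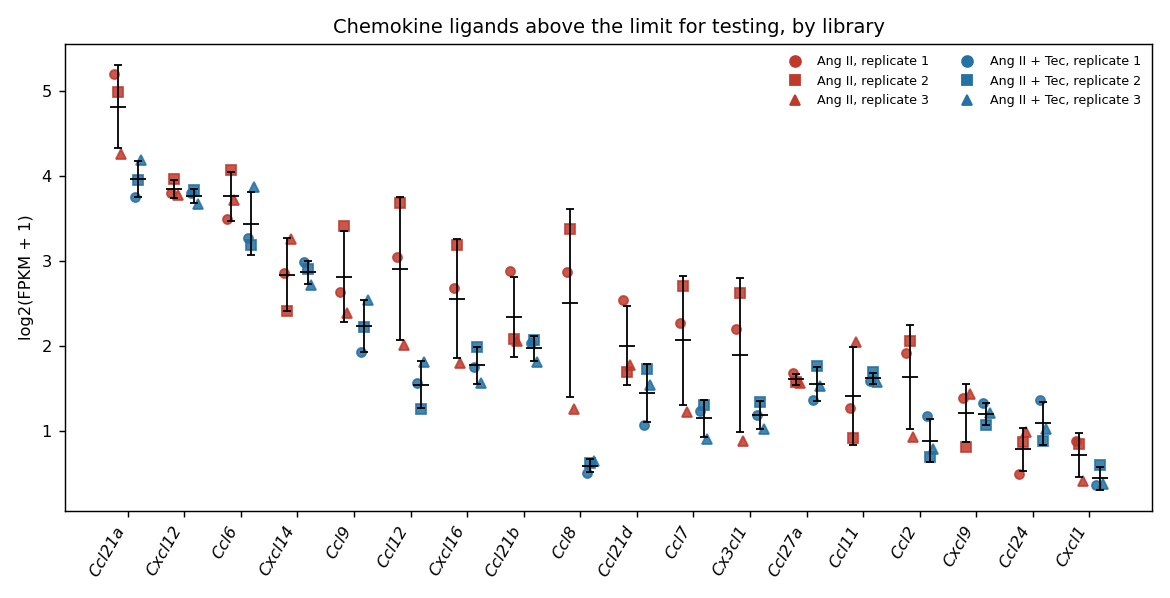
Log2(FPKM + 1) of the 18 tested ligands in order of mean FPKM, with red symbols for the Ang II libraries, blue symbols for the Ang II + Tec libraries, a shape for each replicate number, and black bars for the mean ± SD (n = 3). Ccl21a was the highest ligand, and in Ccl8, Ccl12 and Ccl21a all 3 blue symbols lie below all 3 red ones.

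Ccl3, Ccl4 and Ccl5, inflammatory ligands that attract monocytes and T cells, were too low to test. Their summed FPKM was 0.11 to 1.55 in the Ang II libraries and 0.27 to 0.47 in the Ang II + Tec libraries, and the mean of each was lower with Tec. The eotaxins Ccl11 and Ccl24, ligands of the eosinophil receptor Ccr3, were the exceptions among the tested CC ligands in that their log2 fold changes were positive. Ccl11 measured 1.42, 0.89 and 3.14 FPKM with Ang II and 2.02, 2.24 and 1.99 FPKM with Ang II + Tec (log2 fold change 0.21, 95% interval -0.42 to 0.84). In this gene the order of the Ang II libraries was the opposite of that in Ccl12, with replicate 3 highest. Ccl24 measured 0.42, 0.83 and 0.99 FPKM with Ang II and 1.59, 0.85 and 1.04 FPKM with Ang II + Tec (log2 fold change 0.31, 95% interval -0.11 to 0.72), and the groups overlapped. Ccr3 itself did not exceed 0.03 FPKM in any library.

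Among the ligands of Ccr7, which lead dendritic cells and T cells into lymphatic vessels and lymph nodes, Ccl21a was the most abundant member in the table. Ccl21a (chr4:42772860-42773993, minus strand) measured 35.57, 30.55 and 18.17 FPKM with Ang II and 12.48, 14.48 and 17.18 FPKM with Ang II + Tec. The groups did not overlap, although Ang II replicate 3 and Ang II + Tec replicate 3 lay close together. The mean was 1.91-fold lower with Tec (log2 fold change -0.85, SE 0.25, adjusted p = 0.218). Ccl21d measured 4.83, 2.25 and 2.44 FPKM with Ang II and 1.10, 2.32 and 1.92 FPKM with Ang II + Tec (log2 fold change -0.56, SE 0.27). Ccl21b measured 6.39, 3.23 and 3.17 FPKM with Ang II and 3.11, 3.22 and 2.51 FPKM with Ang II + Tec (log2 fold change -0.37, SE 0.23), and both of these overlapped between the groups. Ccl21a and Ccl21b are on the study's own list of representative genes from these samples, so their direction is no independent evidence.

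The Ccl21 genes are near-identical copies, so reads may have been split or shared among them and the single values are uncertain. Aligned over their reference transcripts, Ccl21a and Ccl21d were identical at 864 of 870 bases (99.3%), Ccl21a and Ccl21b at 400 of 402 (99.5%), and Ccl21b and Ccl21d at 402 of 402. The windows at the starts of Ccl21a and Ccl21d were likewise identical at 297 of 299 aligned bases. The sum of the 3 genes, which depends less on how reads were divided among them, was 46.79, 36.03 and 23.78 FPKM with Ang II and 16.69, 20.02 and 21.61 FPKM with Ang II + Tec, without overlap. Markers of lymphatic endothelium overlapped between the groups, with a summed FPKM over 5 genes of 6.56 to 13.58 with Ang II and 6.61 to 8.86 with Ang II + Tec. None of the 5 was at 0 in every library, and each of the 5 had a lower mean with Tec. All 4 that were tested had a negative log2 fold change, beside 80.0% of all tested genes. Of these, 0 had an unadjusted p-value under 0.05, beside 16.5% lower with Tec over all tested genes.

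Ccl19, the other ligand of Ccr7, was too low to test, at 1.02, 0.56 and 0.06 FPKM with Ang II and 0.10, 0.13 and 0.21 FPKM with Ang II + Tec. Its transcript matched that of the pseudogene Ccl19-ps3 at 285 of 285 aligned bases, and the pseudogene was listed at 0.42 to 6.22 FPKM over the 6 libraries, so the level of Ccl19 is uncertain too. Ccr7 did not exceed 0.13 FPKM. Of the 7 other CC ligands, only Ccl27a was tested, and it measured 1.96 to 2.22 FPKM with Ang II and 1.59 to 2.42 FPKM with Ang II + Tec (95% interval of the log2 fold change -0.36 to 0.26).

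The log2 fold changes of the tested CXC ligands other than Cxcl16 lay between -0.27 and 0.029, and none had an unadjusted p-value under 0.05. Cxcl12, the stromal ligand of Cxcr4, was even across the hearts, at 12.96, 14.64 and 12.69 FPKM with Ang II and 12.94, 13.21 and 11.73 FPKM with Ang II + Tec. Its log2 fold change was -0.082 (95% interval -0.34 to 0.18), and its sign turned under median-of-ratios scaling (0.14) and quantile normalization (0.15). Cxcl14, a ligand expressed in resting tissues, measured 6.24, 4.31 and 8.60 FPKM with Ang II and 6.92, 6.50 and 5.60 FPKM with Ang II + Tec (log2 fold change 0.029, 95% interval -0.48 to 0.53). Neither gene separated the groups, and the sign of Cxcl14 turned when Ang II replicate 2 (-0.19) or Ang II + Tec replicate 1 (-0.028) was left out, and with atrial transcripts as a factor in the fit (-0.067).

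Of the ligands of Cxcr2, which recruit neutrophils, only Cxcl1 was tested. Cxcl1 measured 0.85, 0.81 and 0.34 FPKM with Ang II and 0.29, 0.52 and 0.30 FPKM with Ang II + Tec, with overlap (log2 fold change -0.27, SE 0.15, adjusted p = 0.340). Cxcl2, Cxcl5 and Cxcl15 did not exceed 0.44 FPKM, and Cxcr2 did not exceed 0.10 FPKM. The summed FPKM of the 5 neutrophil markers in the table was 0.33 to 3.14 with Ang II and 0.34 to 3.06 with Ang II + Tec, and Ly6g was at 0 in every library.

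The ligands of Cxcr3 are induced by interferon and draw in T cells and NK cells. Cxcl10 measured 1.20, 1.51 and 0.22 FPKM with Ang II and 0.11, 0.21 and 0.16 FPKM with Ang II + Tec, so that only 2 libraries reached the limit and the gene was not tested. The groups of Cxcl10 did not overlap, by a margin of 0.22 against 0.21 FPKM. Its neighbour Cxcl9 measured 1.63, 0.77 and 1.71 FPKM with Ang II and 1.52, 1.11 and 1.32 FPKM with Ang II + Tec (log2 fold change -0.011, 95% interval -0.44 to 0.42). The difference Cxcl10 minus Cxcl9 within a library differed by -0.69 (Ang II + Tec minus Ang II, on the log2(FPKM + 1) scale), with an exact two-sided permutation p of 0.3. With 3 against 3 no p below 0.1 can be reached, and the added 1 compresses Cxcl10, so neither a difference nor its absence is shown. Cxcl11 did not exceed 0.02 FPKM, and Cxcr3 did not exceed 0.22 FPKM.

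Cxcl16 and Cx3cl1 are made as membrane-bound ligands that can be shed, and each has its own receptor among the members. Cxcl16, the ligand of Cxcr6, measured 5.43, 8.10 and 2.49 FPKM with Ang II and 2.38, 2.99 and 1.97 FPKM with Ang II + Tec (log2 fold change -0.78, SE 0.33, adjusted p = 0.266). Cx3cl1, the ligand of Cx3cr1, measured 3.59, 5.15 and 0.85 FPKM with Ang II and 1.29, 1.55 and 1.04 FPKM with Ang II + Tec (log2 fold change -0.71, SE 0.40, adjusted p = 0.350). In both genes Ang II replicates 1 and 2 were above every other library, while Ang II replicate 3 lay within the Ang II + Tec range for Cxcl16 and below it for Cx3cl1.

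Of the tested receptors, Ccr2 and Ccr1 reached the limit for testing only in the Ang II libraries, so their direction, their separation and their p-values follow in part from that limit and are given as a description. Ccr2, the receptor of inflammatory monocytes (chr9:124101950-124113557), measured 1.39, 3.02 and 0.56 FPKM with Ang II and 0.39, 0.38 and 0.43 FPKM with Ang II + Tec. The Ang II + Tec libraries were nearly equal, and the lowest Ang II library was just above them. The mean FPKM was 4.14-fold lower with Tec (log2 fold change -0.82, SE 0.31, adjusted p = 0.241), and without Ang II replicate 2 it was 2.44-fold lower, with a log2 fold change of -0.46. Ccr1, a receptor of monocytes and neutrophils, had the same order of its Ang II libraries, at 1.35, 2.21 and 0.57 FPKM with Ang II and 0.43, 0.44 and 0.43 FPKM with Ang II + Tec (log2 fold change -0.67, SE 0.24, adjusted p = 0.234).

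Cxcr4, the receptor of Cxcl12, measured 2.06, 2.24 and 1.02 FPKM with Ang II and 1.00, 1.29 and 1.33 FPKM with Ang II + Tec (log2 fold change -0.30, SE 0.19, adjusted p = 0.387). It was the most abundant of the named receptors in the Ang II + Tec libraries, and its groups overlapped.

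Cx3cr1 and Cxcr6 were the highest receptors that could not be tested, since each reached 0.5 FPKM in only 2 libraries, Ang II replicates 1 and 2. Cx3cr1, found on monocytes and resident macrophages, measured 0.81, 1.23 and 0.35 FPKM with Ang II and 0.27, 0.19 and 0.13 FPKM with Ang II + Tec, without overlap. Cxcr6, found on subsets of T and NK cells, measured 1.26, 1.75 and 0.05 FPKM with Ang II and 0.17, 0.15 and 0.18 FPKM with Ang II + Tec. For Cxcr6, Ang II replicate 3 was the lowest of all 6 libraries. Among the 31 untested members, Cxcl10 and Cx3cr1 were the 2 whose groups did not overlap in the direction lower with Tec, beside 4.26% of all 17825 genes too low to test, and 0 did so in the other direction, beside 2.13%. The other untested receptors did not exceed 0.33 FPKM in any library.

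**Figure D3:**
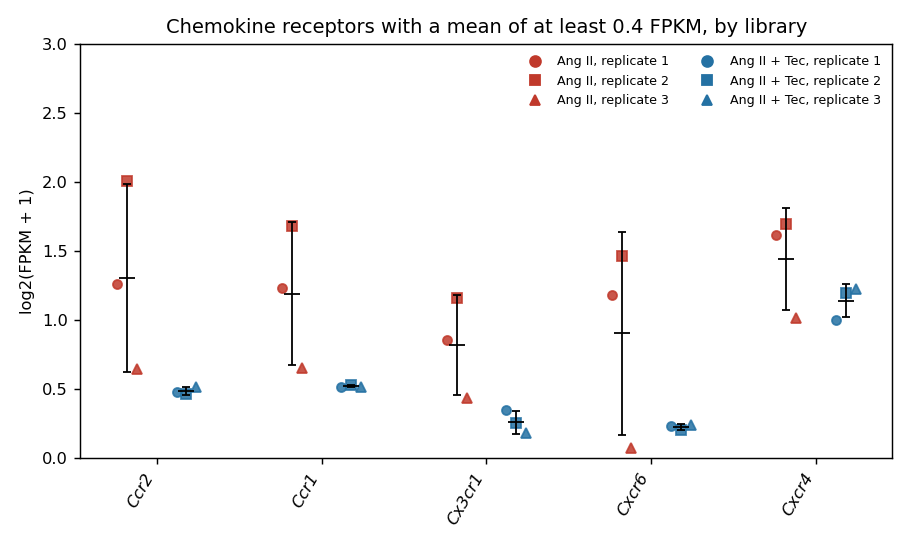
Log2(FPKM + 1) of 5 receptors with a mean of at least 0.4 FPKM, with red symbols for the Ang II libraries, blue symbols for the Ang II + Tec libraries and black bars for the mean ± SD (n = 3). In each receptor Ang II replicates 1 and 2 stand above the blue symbols and Ang II replicate 3 lies near them, and below them in Cxcr6.

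Many members lie side by side in the genome. In the group on chromosome 11 that runs Ccl2, Ccl7, Ccl11, Ccl12 and Ccl8, the genes on both sides of Ccl11 had log2 fold changes of -0.75 to -1.91 while that of Ccl11 was 0.21. Within a library, Ccl12 minus Ccl11 on the log2(FPKM + 1) scale was 1.77, 2.76 and -0.039 with Ang II and -0.029, -0.43 and 0.24 with Ang II + Tec, an average difference of -1.57 (exact two-sided permutation p = 0.3). Ang II replicates 1 and 2 alone stood apart in this measure. In the second group on the same chromosome, Ccl9 and Ccl6 were expressed and their neighbours Ccl5, Ccl3 and Ccl4 did not exceed 0.76 FPKM. On chromosome 9, Ccr2 and Ccr1 were both highest in Ang II replicate 2 and next highest in Ang II replicate 1, while Ccr3 and Ccr1l1 beside them were at most 0.04 FPKM.

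**Figure D4:**
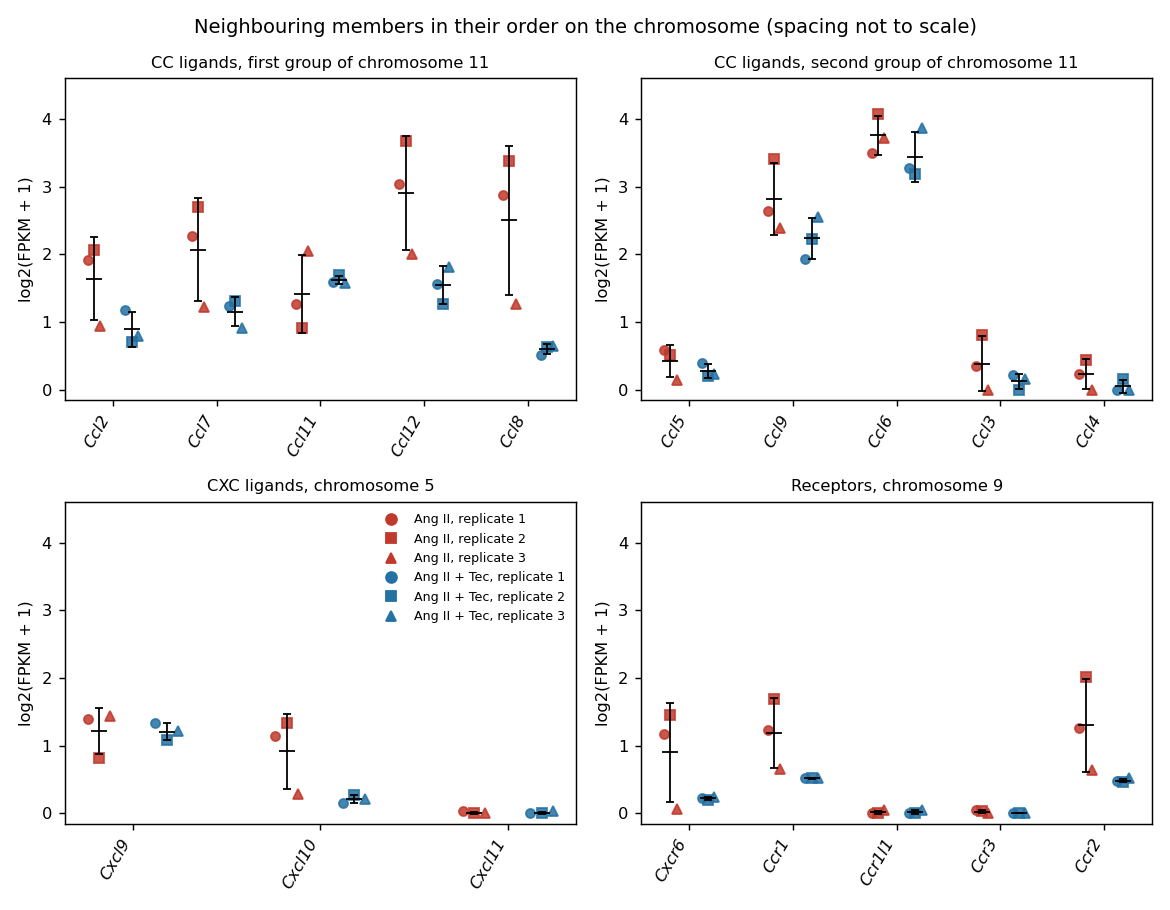
Log2(FPKM + 1) of neighbouring members in their order along the chromosome (spacing not to scale), with red symbols for the Ang II libraries, blue symbols for the Ang II + Tec libraries and black bars for the mean ± SD (n = 3). In the first panel the Ang II libraries of Ccl11 run in the opposite order to those of Ccl12 and Ccl8. In the panel of chromosome 5, Cxcl9 has similar group means with Ang II replicate 2 lowest, while Cxcl10 is high in Ang II replicates 1 and 2.

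Ang II replicate 3 was lower than the other Ang II libraries in 16 of the 22 tested members, as it was in 71.9% of all tested genes. It lay above the range of the Ang II + Tec libraries in 9 members, beside 26.7% of all tested genes. It lay within that range in 12 members and below it in 1 (Cx3cl1). Ang II replicates 1 and 2 were both above every Ang II + Tec library in 14 of the 22 members, beside 53.7% of all tested genes. Without Ang II replicate 3, the call was met by 8 members (Ccl2, Ccl7, Ccl8, Ccl12, Ccl21a, Ccr2, Cx3cl1 and Cxcl16), and 4.26% of all tested genes were called in that fit. Without Ang II replicate 1, or Ang II + Tec replicate 2, only 3 members (13.6%) were left at an unadjusted p-value under 0.05 in place of 8, beside 6.29% of all tested genes lower with Tec in the first case and 16.4% in the second. That number was 4 (18.2%) without Ang II + Tec replicate 1 or 3, beside 7.68% and 7.60% of all tested genes, and 5 (22.7%) without Ang II replicate 2, beside 7.64%.

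Other transcripts moved with the same libraries. Of 12 macrophage markers, none was at 0, and 11 had a negative log2 fold change, beside 80.0% of all tested genes. Their median was -0.65, beside -0.17 over all tested genes. No marker was called, and 9 had an unadjusted p-value under 0.05, lower with Tec, beside 16.5% of all tested genes. The remaining markers were Cd163, Mertk and Lyve1, with log2 fold changes of -0.071, -0.12 and 0.093. Their summed FPKM was 223.53, 288.24 and 173.7 with Ang II and 104.7, 117.56 and 131.22 with Ang II + Tec. The summed FPKM of 5 markers of recruited monocytes was 136.93 to 295.27 with Ang II and 98.77 to 108.35 with Ang II + Tec, and that of 6 fibroblast markers was 557.38, 709.44 and 125.16 with Ang II and 107.34, 177.99 and 119.6 with Ang II + Tec. Markers of T and NK cells summed to 1.09 to 1.93 FPKM with Ang II and 0.98 to 2.99 FPKM with Ang II + Tec, and those of B cells to 4.27 to 5.14 and 2.58 to 3.86 FPKM, of which Ighm made up most, while 3 of the 6 B cell markers (Cd79a, Ms4a1 and Pax5) had a higher mean with Tec. The part of these cell types in the results was not tested.

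Transcripts of the heart muscle itself were checked in the same way. Markers of ventricular cardiomyocytes summed to 7279.54 to 8960.4 FPKM in the 6 libraries. Markers of atrial myocardium summed to 636.69 and 797.06 FPKM in Ang II replicates 1 and 2 and 1567.73 FPKM in Ang II + Tec replicate 2, but to at most 2.62 FPKM in the other 3 libraries. Ang II + Tec replicate 2 also held transcripts of fat cells (a sum of 61.74 FPKM, with 0.15 to 9.8 FPKM elsewhere). Among the libraries with atrial transcripts, the median difference of the 22 members (Ang II + Tec minus Ang II, log2 scale) was -0.65, with 18 lower, beside -0.13 over all tested genes. Among the libraries without them it was -0.14, with 17 lower, beside -0.078 over all tested genes. Each stratum has a single library in 1 of its arms, so neither was tested. Ccl8 differed by -2.49 in the first stratum and by -0.69 in the second, and Ccr2 by -1.17 and -0.15. With atrial transcripts as a factor in the fit, 5 members (22.7%) in place of 8 had an unadjusted p-value under 0.05, beside 18.6% of all tested genes lower with Tec, and the median was -0.40, beside -0.10 over all tested genes.

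To see which members departed from the macrophage markers, the mean log2(FPKM + 1) of the 12 markers was subtracted from each of the 22 tested members within each library, a measure chosen after the values were seen. Ccl8 was then -0.57, -0.42 and -1.89 with Ang II and -2.24, -2.23 and -2.27 with Ang II + Tec, so it was lower in every Ang II + Tec library also relative to these markers (difference -1.29, exact two-sided permutation p = 0.1, the smallest that 3 against 3 allows, and 0.314 adjusted over the 22 members). It was the only one of the 22 whose groups were separated in that direction. The differences of Ccr2 (-0.20) and Ccr1 (-0.053) had overlapping groups (exact permutation p = 0.6 and 0.7), on a scale that compresses these low receptors. On the unlogged scale, the FPKM of Ccr2 was also divided by that of the single macrophage marker Adgre1. The ratio was 0.256, 0.332 and 0.213 with Ang II and 0.146, 0.184 and 0.173 with Ang II + Tec, with no test. These groups did not overlap, but Adgre1 is 1 of the 12 markers, and the separation may not hold with another. Ccr2 also reached the limit for testing only in Ang II libraries, so the ratio is a description. Ccl8 minus Adgre1 differed by -1.05 on the log2(FPKM + 1) scale (Ang II + Tec minus Ang II, exact permutation p = 0.1). Adjusted over the 3 differences between single genes (Cxcl10 minus Cxcl9, Ccl12 minus Ccl11 and this one), each p was 0.3.

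Relative to the same markers, Ccl24, Ccl27a, Cxcl1, Cxcl12 and Cxcr4 were among the members that were higher in every Ang II + Tec library, each with an exact permutation p of 0.1 and an adjusted value of 0.314. For Cxcl12 the values were 0.36, 0.17 and 0.62 with Ang II and 1.04, 0.97 and 0.74 with Ang II + Tec. The mean of the markers was itself lower in every Ang II + Tec library. It was 3.44, 3.79 and 3.16 with Ang II and 2.76, 2.86 and 2.93 with Ang II + Tec. A member with a small log2 fold change, such as Cxcl12 (-0.082), therefore comes out higher in this measure. The log2(FPKM + 1) scale compresses differences of low genes such as Cxcl1, which moves them upward relative to abundant markers that are lower with Tec. The groups overlapped in 15 of the 22 members.

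**Figure D5:**
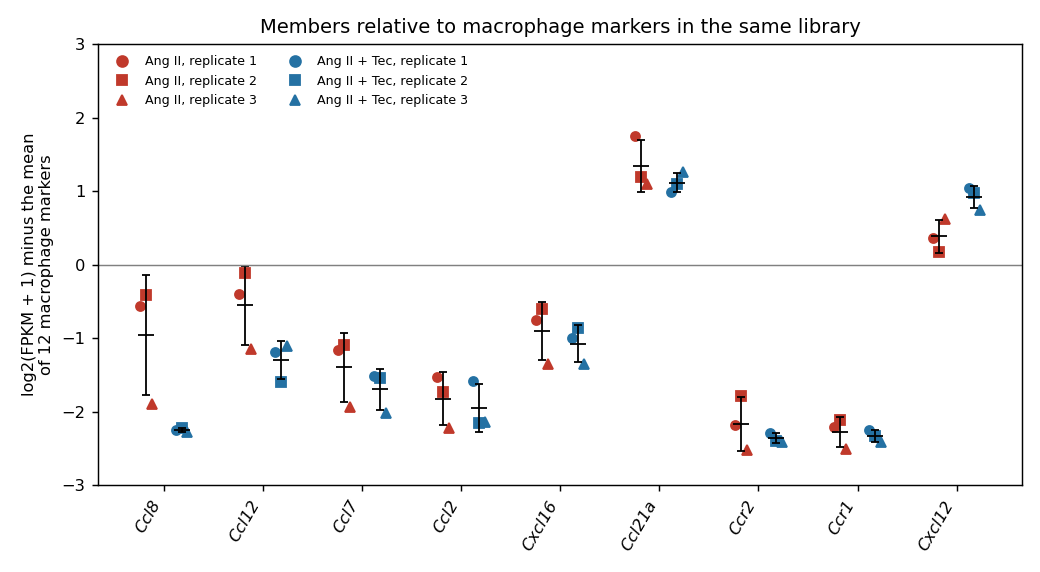
Log2(FPKM + 1) of 9 members minus the mean of the 12 macrophage markers in the same library, with red symbols for the Ang II libraries, blue symbols for the Ang II + Tec libraries and black bars for the mean ± SD (n = 3). The Ccl8 values of the Ang II + Tec libraries lie between -2.27 and -2.23, below all Ang II libraries. Those of Cxcl12 lie above all Ang II libraries, but the subtracted mean was itself lower in every Ang II + Tec library.

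Genes that act with the members but fall outside the name rule were counted in the same fit. Of 11 atypical receptors and other chemokines, 7 were tested, and the median was -0.24. Of these, 6 had a negative log2 fold change and 1 a positive one, beside 80.0% negative over all tested genes. None was called, and Ackr4 and Pf4 had an unadjusted p-value under 0.05, lower with Tec, beside 16.5% of all tested genes. Ackr4, a scavenger receptor that clears Ccl19 and Ccl21, measured 5.21, 5.31 and 1.52 FPKM with Ang II and 1.56, 1.54 and 1.00 FPKM with Ang II + Tec (log2 fold change -0.97, SE 0.35, adjusted p = 0.234). Ackr3, the scavenger of Cxcl12, was the member of the list with a positive log2 fold change, 0.31 (95% interval -0.079 to 0.69), at 15.92, 18.19 and 17.65 FPKM with Ang II and 24.72, 24.00 and 16.78 FPKM with Ang II + Tec. These genes were named after their values were seen.

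Of 35 genes of signalling below the receptors (G protein subunits, kinases and regulators of the actin skeleton), 28 were tested, 25 had a negative log2 fold change and the median was -0.35. None was called, and 11 had an unadjusted p-value under 0.05, all lower with Tec. In 9 of the 28 the groups did not overlap, lower with Tec. The shares of all tested genes were 80.0% for a negative log2 fold change, 16.5% for that p-value and 18.9% for groups without overlap. Gng11, a G protein gamma subunit, had the smallest p-value of them, at 29.16, 36.06 and 26.59 FPKM with Ang II and 21.12, 17.21 and 16.22 FPKM with Ang II + Tec. All 3 Ang II libraries of Gng11, replicate 3 included, were above all Ang II + Tec libraries, and the log2 fold change was -0.72 (SE 0.16, adjusted p = 0.185).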

How the data were processed

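The libraries were paired-end, from poly(A) RNA of mouse hearts. The authors removed adapters and poor reads with Cutadapt, inspected quality with FastQC, and deposited gene-level FPKM with 2 decimals. Per the labels, their processing notes name HISAT2 2.0, StringTie 1.3.0, Bowtie 0.12.2 and the build mm8, in no stated role, but gene coordinates equal those of GENCODE M21 on GRCm38 for 27947 of 30832 shared genes (90.6%) and for 46 of the 53 members. The study states a nominal depth for the transcriptome, but FPKM keep no read totals, so the depth of each library is unknown and no counting interval can be given. The relative depth, estimated from the lowest values, was 0.870 to 1.18. The sums of FPKM were 516699 to 629989, of which mitochondrial transcripts made up 40.1% to 52.5%.

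In R 4.3.3, limma 3.58.1 (lmFit and eBayes with a trend, two-sided, no covariate) compared log2(FPKM + 1) over the 13089 genes that met the limit for testing, and p-values were adjusted by Benjamini-Hochberg over those genes. The p-values set the difference between the groups against the spread of libraries within a group, and take the libraries as independent. The sources used here do not say how the hearts were collected or batched, so that could not be checked. Differences between single genes within a library, and members minus the mean of the macrophage markers, were compared between the groups with exact permutation tests.

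Members given with values in every library were the 12 with the lowest p-values, the 6 with the highest mean FPKM, and Ccl21a and Ccl21b. Other genes given by library were picked with their values in view. The members, the lists and the tests were chosen with earlier results of these data known. Alternatives changed the pseudocount, the filter, the scaling, the replicate block, the variance trend and the weights of the libraries, and left out each library in turn. Promoter windows are from RefSeq (GRCm38.p6) and transcripts from GENCODE M21, aligned with Biopython 1.88. The values of 1 member are not reported here singly. The table's other columns and the study's other assays were not used here.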

Additional observations from a re-analysis of the deposited data

How the results depend on the processing

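No log2 fold change of the 16 members chosen by the rule changed sign except those of Cxcl12 and Cxcl14. Of these 16, 12 were chosen for the lowest p-values in these data, so a kept sign is a description. Cxcl12 was 0.14 with the median of ratios and 0.15 with quantile normalization, and Cxcl14 was -0.067 with atrial transcripts as a factor (chosen after seeing the data) and -0.19 to 0.24 when a library was left out, with -0.028 where that was Ang II + Tec replicate 1. The median over the members was -0.73 with a pseudocount of 0.1 and -0.077 without a filter on low FPKM, where 50 members entered. The number of genes called over the whole table, 21 as reported, was 3 without a filter, 11 with a mean FPKM of at least 0.5, 522 with library weights, 13 with atrial transcripts as a factor and 2 to 557 when a library was left out. Members called were 6 with library weights (Ccl7, Ccl8, Ccl12, Ccr2, Cx3cl1 and Cxcl16), beside 3.99% of all tested genes. They were 0 to 8 when a library was left out, beside 0.0153% to 4.26%, and 0 under the other alternatives. The weights ran from 0.118 to 9.96 and their estimation stopped before its tolerance was reached. Members at an unadjusted p-value under 0.05 were 13 with library weights, beside 42.3% of all tested genes lower with Tec. They were 5 with the atrial factor, beside 18.6%. When a library was left out they were 3 to 15 (15 without Ang II replicate 3, 14 of them lower), beside 6.29% to 39.3%. With the replicate block they were 11, beside 22.9%, with 0 called and a median of -0.49. The deviations of same-numbered libraries correlated at -0.039, 0.43 and 0.38. Ang II replicates 2 and 3 correlated best with the same number, and Ang II replicate 1 with Ang II + Tec replicate 2 (0.21). With 3 libraries per group these values cannot decide whether the replicate numbers pair the libraries.

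The limits are those of 3 hearts against 3, with 1 Ang II heart close to the Ang II + Tec hearts and atrial transcripts in some libraries of both groups. With FPKM of 2 decimals, values of the lowest members rest on few fragments, whose number is unknown.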
